A study of Mus musculus with 11 samples.

Results

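The genes described here are the neuregulins and the receptors of their family: Nrg1, Nrg2 and Nrg3, which encode ligands, and Egfr, Erbb2, Erbb3 and Erbb4, which encode receptor tyrosine kinases. They were taken by symbol, and they make up 7 of the 25803 gene symbols in the count matrices of 11 single-nucleus RNA-sequencing libraries. Nrg1 had 2 rows with this symbol, which were summed, and the second row held 0 unique molecular identifiers (UMIs, the tags that count single RNA molecules). All 7 genes were detected.

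Neuregulins are membrane-anchored growth factors whose shed or cell-bound EGF-like domain binds ErbB3 or ErbB4. ErbB2 has no known ligand of its own and acts as a partner of the other receptors, ErbB3 has a weak kinase and signals through its partner, and the EGF receptor binds EGF, TGF-alpha and related ligands in place of neuregulins. In the nervous system the family is known for Schwann cell and oligodendrocyte development, for radial glia and astrocytes, and for the synapses of interneurons that carry ErbB4.

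The libraries were made from nuclei of cerebellum and brainstem of one hemisphere together with cervical spinal cord of male mice 8 to 12 weeks old. All mice carried floxed Il12rb2 alleles, which encode a chain of the interleukin-12 receptor. The fl group (Il12rb2fl/fl) had no Cre, and the NestinCre group (NestinCre/+Il12rb2fl/fl, littermates of the former) carried 1 copy of a Cre driven from Nestin sequences, which neural stem and precursor cells use, so that the deletion was not limited to 1 type of cell. There were 4 fl and 4 NestinCre libraries at day 10 of experimental autoimmune encephalomyelitis (EAE, induced with a 200 µg dose of a myelin oligodendrocyte glycoprotein peptide in complete Freund's adjuvant and with pertussis toxin), 2 fl libraries of naive mice and 1 NestinCre library of a naive mouse. Libraries are named here by group and number, as fl EAE 1 or NestinCre EAE 4. They came from 3 sequencing runs: numbers 1 to 3 of both EAE groups were in run 1, number 4 of both EAE groups and fl naive 2 in run 2, and fl naive 3 and NestinCre naive 2 in run 3. The comparison of genotypes in EAE asks whether the family differed in mice whose neural cells were targeted for loss of the receptor, and the comparison of EAE with naive mice asks whether it changed with the disease.

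The libraries held between 40761007 and 86063464 UMIs in 13120 to 22951 barcodes, and 11618 to 18402 nuclei per library were kept, with a median of 1875 to 3126 UMIs. Of 159060 kept nuclei, 152183 fell into 19 classes named from lists of marker genes, and 14 classes had at least 10 nuclei in each library and were tested. A class name means nuclei that were like this cell type by at least 3 markers, such as granule cell-like nuclei, and it is written without the suffix from here on. Any 2 libraries shared between 47 and 140 cell barcodes. Il12rb2 over all barcodes was at 8.18 to 17.2 UMIs per 1000000 (counts per this total, CPM) and was not lower in NestinCre libraries, so the deletion of one part of the gene was not visible in its summed level, while Nes, part of the driver, was at 0.805 to 1.23 CPM in NestinCre libraries and at 0.0312 to 0.119 in fl libraries. NestinCre EAE 4 stood apart from the other 3 NestinCre EAE libraries, with 12 infiltrating phagocytes against 71 to 141 and 1 neutrophil against 55 to 138.

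Nrg1 spans 1070.9 kb of chromosome 8 (32303906 to 33374825, minus strand, build GRCm39), Nrg2 spans 180.6 kb of chromosome 18 (36149819 to 36330456, minus strand) and Nrg3 spans 1109 kb of chromosome 14 (38087063 to 39196036, minus strand). Egfr lies on chromosome 11 (16702198 to 16868158, plus strand), Erbb2 on the same chromosome (98303203 to 98328542, plus strand), Erbb3 on chromosome 10 (128403392 to 128425811, minus strand) and Erbb4 on chromosome 1 (68071345 to 69147619, minus strand, 1076.3 kb). Erbb2 and Erbb3 are short, at 25.3 and 22.4 kb. Because reads within introns were counted in nuclei, a long gene gives more UMIs at the same level. Genes were therefore set beside each other per kb of gene, or in CPM where this is stated.

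Levels of a class are CPM of its own UMIs, and a class mean is taken over the libraries with at least 10 nuclei of it, 11 libraries for each of the 14 tested classes. Classes came from clustering the same nuclei, with the 7 genes left out of that step, so their levels are described with no test.

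**Figure D1:**
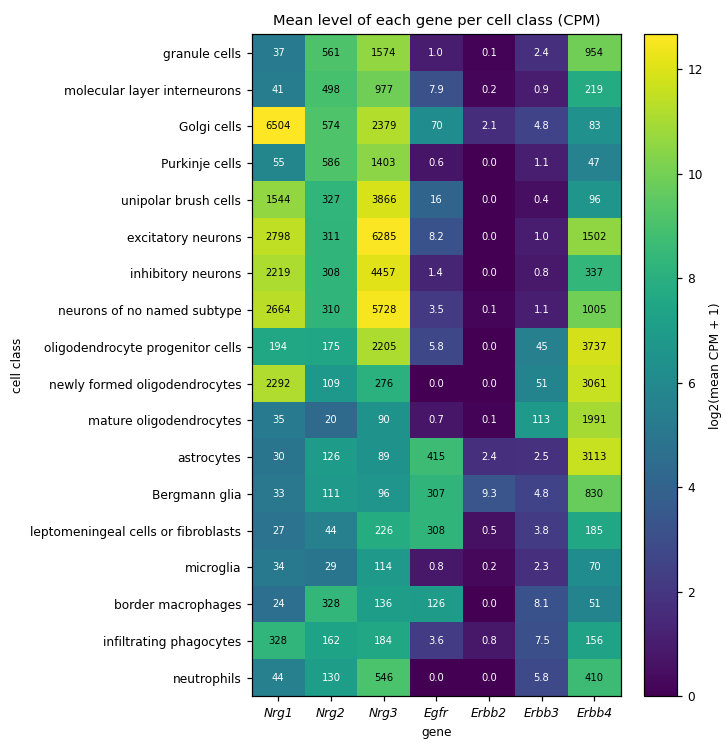
Mean level of each of the 7 genes (columns) in 18 cell classes (rows). Numbers are mean CPM over libraries with at least 10 nuclei of the class, and colour is log2(mean CPM + 1). Nrg1 was highest in Golgi cells (6504), Nrg3 in excitatory neurons (6285) and Erbb4 in oligodendrocyte progenitor cells (3737), while Erbb2 did not exceed 9.29 in any class.

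Among the ligands, Nrg1 was high in most neuronal classes and low in granule cells, molecular layer interneurons and Purkinje cells. Its highest level was in Golgi cells, the inhibitory interneurons of the granule layer, at 6504 ± 767 CPM (SD, n = 11), with a lowest library of 5356, a median of 6299 and a highest of 8098. All Golgi cell values lay above those of the next class, excitatory neurons other than granule cells, at 2798 ± 428 CPM. Below them followed neurons of no named subtype (2664 ± 235 CPM), newly formed oligodendrocytes (2292 ± 585 CPM in the 6 libraries with enough nuclei), inhibitory neurons (2219 ± 436 CPM) and unipolar brush cells (1544 ± 344 CPM), each overlapping its neighbour in this order. Infiltrating phagocytes came next at 328 ± 271 CPM in 7 libraries, apart from unipolar brush cells, and oligodendrocyte progenitor cells were at 194 ± 43.9 CPM. Granule cells were at 36.8 ± 14.6 CPM, molecular layer interneurons at 40.6 ± 14.2 CPM and mature oligodendrocytes at 34.6 ± 12.9 CPM. The ranges of these 3 classes over libraries overlapped that of microglia (34.3 ± 17.2 CPM), and classes were not compared within libraries. The jump within the oligodendrocyte lineage was large, since newly formed oligodendrocytes held Nrg1 at 1732 to 3241 CPM in these 6 libraries while mature cells were at 13.6 to 53.7 CPM in all 11.

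Nrg2 had a flatter profile. Purkinje cells (586 ± 61.8 CPM), Golgi cells (574 ± 72.0), granule cells (561 ± 60.9) and molecular layer interneurons (498 ± 48.9) overlapped one another in order, and excitatory neurons, inhibitory neurons and neurons of no named subtype lay together between 308 and 311 CPM on average. Glia were lower, from 175 ± 32.4 CPM in oligodendrocyte progenitor cells to 19.7 ± 5.57 CPM in mature oligodendrocytes, the lowest class. Border macrophages, with 66 Nrg2 UMIs in 6 libraries, stood at 328 ± 119 CPM, within the range of neurons and above microglia at 29.4 ± 16.5 CPM.

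Nrg3 was high in all neurons and in progenitor cells. Excitatory neurons were at 6285 ± 422 CPM, neurons of no named subtype at 5728 ± 411, inhibitory neurons at 4457 ± 464 and unipolar brush cells at 3866 ± 335, and Golgi cells (2379 ± 317) followed with no overlap with the last of these. Oligodendrocyte progenitor cells held 2205 ± 290 CPM, as much as Golgi cells and more than granule cells on average (1574 ± 186), Purkinje cells (1403 ± 135) and molecular layer interneurons (977 ± 96.2). In newly formed oligodendrocytes Nrg3 was at 276 ± 79.2 CPM and in mature oligodendrocytes at 90.4 ± 27.6 CPM.

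Per kb of gene, granule cells held 3.10 CPM of Nrg2, 1.42 of Nrg3 and 0.0344 of Nrg1, whereas Golgi cells held 6.07 of Nrg1, 3.18 of Nrg2 and 2.15 of Nrg3. On this scale Nrg2 was above Nrg3 in granule cells and Golgi cells, while in CPM with no division by gene length Nrg3 was the higher of the pair in both (1574 against 561 CPM and 2379 against 574 CPM).

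Erbb4, the neuregulin receptor with a working kinase, was a glial as well as a neuronal transcript in this tissue. Its highest level was in oligodendrocyte progenitor cells (3737 ± 722 CPM, between 2637 and 5201, median 3640), and astrocytes (3113 ± 353), newly formed oligodendrocytes (3061 ± 529 in 6 libraries) and mature oligodendrocytes (1991 ± 219) followed, each overlapping the one before it. Excitatory neurons were at 1502 ± 299 CPM, neurons of no named subtype at 1005 ± 79.6, granule cells at 954 ± 129 and Bergmann glia, the astrocytes of the molecular layer, at 830 ± 158. Inhibitory neurons (337 ± 82.3 CPM), molecular layer interneurons (219 ± 31.0), unipolar brush cells (96.4 ± 46.6) and Purkinje cells (47.3 ± 30.8, the lowest class) were well below them. In Golgi cells the level varied from 1.94 CPM in fl EAE 4 to 373 in NestinCre naive 2. In NestinCre naive 2, 1 nucleus gave 75 of the 96 Golgi cell UMIs of Erbb4, and in fl EAE 1 another nucleus gave 28 of 41, so these 2 values rest mainly on single nuclei.

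Erbb3, the other neuregulin receptor, was mainly a transcript of the oligodendrocyte lineage. Mature oligodendrocytes held 113 ± 12.3 CPM (93.0 to 135), newly formed oligodendrocytes 50.7 ± 30.6 and progenitor cells 45.4 ± 11.9, with 5387, 24 and 111 UMIs. The other 15 classes had means of 8.14 CPM or less. Per kb of gene, mature oligodendrocytes held 5.02 CPM of Erbb3 and 1.85 of Erbb4, whereas progenitor cells held 2.03 of Erbb3 and 3.47 of Erbb4, so the order of the 2 receptors per kb was opposite in the 2 classes. In CPM with no division by gene length, Erbb4 was the higher of the 2 in both classes.

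Egfr was an astroglial and fibroblast transcript. Astrocytes held 415 ± 41.5 CPM (357 to 480), leptomeningeal cells or fibroblasts 308 ± 134 and Bergmann glia 307 ± 60.2, and these overlapped. Border macrophages were at 126 ± 87.5 CPM with 19 UMIs, and Golgi cells, the highest neurons, at 69.8 ± 22.8 CPM in 11 of 11 libraries. Granule cells were at 1.03 ± 0.376 CPM and mature oligodendrocytes at 0.683 ± 0.654. No UMI of Egfr was found in newly formed oligodendrocytes. Per kb, astrocytes held 2.50 CPM of Egfr and 2.89 of Erbb4.

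Erbb2 was close to the limit of detection, with 77 UMIs in 18 classes over 11 libraries. The highest mean was 9.29 ± 8.08 CPM in Bergmann glia from 16 UMIs, followed by astrocytes at 2.37 ± 2.56 CPM from 8 UMIs. Oligodendrocyte progenitor cells, excitatory neurons and Purkinje cells were among the 8 classes with 0 UMIs. It is a short gene, and per kb it reached 0.367 CPM in Bergmann glia, and a class without a UMI means only that it was not detectable at this depth.

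**Figure D2:**
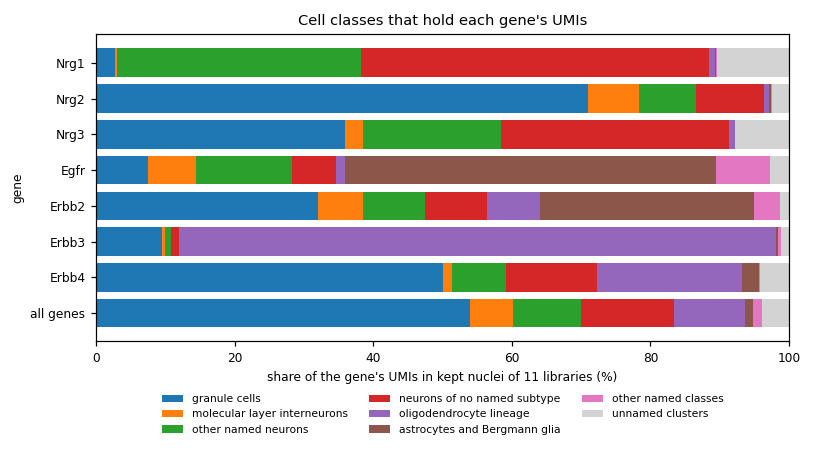
Share of each gene's UMIs (percent of all kept nuclei of 11 libraries) held by groups of cell classes, with all genes as the last bar. Granule cells held 71.1% of Nrg2 and 2.67% of Nrg1, and the oligodendrocyte lineage held 86.3% of Erbb3 UMIs.

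Since granule cells were the most numerous nuclei, with 54.0% of all UMIs in kept nuclei, the tissue total of a gene was set by them to very different degrees. They held 71.1% of the Nrg2 UMIs (59.8% to 77.5% per library), 50.0% of Erbb4 (33.9% to 63.4%), 35.9% of Nrg3 and 2.67% of Nrg1. The largest share of the Nrg1 UMIs was in neurons of no named subtype (50.1%, between 46.3% and 54.9% per library), with 18.5% in excitatory neurons and 6.86% in Golgi cells, which gave 0.753% of all UMIs. Mature oligodendrocytes held 84.1% of Erbb3 and 18.9% of Erbb4. Astrocytes held 37.5% and Bergmann glia 16.1% of Egfr while giving 0.666% and 0.388% of all UMIs.

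Clusters within a class differed in their members. Among molecular layer interneurons, the cluster led by Cdh1 and Nxph1 (1466 nuclei) held Erbb4 at 621 CPM and Nrg3 at 1787, and the cluster led by Gldc and Vwde (1591 nuclei) held Erbb4 at 50.9 CPM and Nrg2 at 650. The granule cell cluster led by Svep1 (39050 nuclei) held Erbb4 at 1215 CPM, against 794 in the one led by Il16 (62465 nuclei). Astrocytes also fell into 2 clusters, with Erbb4 at 3377 and 1942 CPM and Egfr at 404 and 472 CPM. In the 7 larger clusters of excitatory neurons Erbb4 ranged from 104 to 4668 CPM and Nrg1 from 381 to 6478 CPM, whereas Nrg3 ranged from 4382 to 7298. These clusters were made from the same nuclei and their differences were not tested.

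Across the 14 tested classes, genes with the most similar profiles, by Pearson correlation of log2(CPM + 1) over class means among 11887 genes, were Elavl2 (r = 0.93), 5530401A14Rik (0.93) and Lingo2 (0.91) for Nrg1, Mcf2l (0.95), Scn8a (0.94) and Syt14 (0.94) for Nrg2, and Usp29 (0.99) and Ica1 (0.98) for Nrg3. For the receptors they were Sox10 (0.93), Ninj2 (0.92) and Tm7sf3 (0.92) for Erbb3, Id3 (0.90), Ddi1 (0.90) and Pdgfd (0.90) for Egfr, and Gm37735 (0.94), Ercc4 (0.87) and Fam189a2 (0.85) for Erbb4. Among the 7 genes, Nrg1 and Nrg3 had r = 0.80, Nrg2 and Nrg3 0.77, Erbb3 and Erbb4 0.49, and Nrg2 and Erbb3 -0.57. The 14 points share libraries, so these values are descriptions.

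The genotypes were compared in EAE, 4 libraries against 4, by edgeR's quasi-likelihood test on UMIs summed per library and class, with the sequencing run in the model and Benjamini-Hochberg adjustment over all genes tested in the class. Of 98 gene and class pairs, 60 passed the filter on low counts and 38 did not, among them all 14 of Erbb2. None of the 60 pairs was called at an adjusted p under 0.05, by edgeR or by DESeq2, where 0.955% of all 107281 gene and class pairs were called by edgeR. By unadjusted p, 8 of 60 were under 0.05, 1 higher and 7 lower in NestinCre mice, where 7.63% of all pairs were. The log2 fold change of NestinCre against fl mice was above 0 in 36 pairs and below 0 in 24, with a median of 0.030 beside 0.0019 over all genes. The smallest adjusted p was 0.0556, for Erbb4 in oligodendrocyte progenitor cells.

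**Figure D3:**
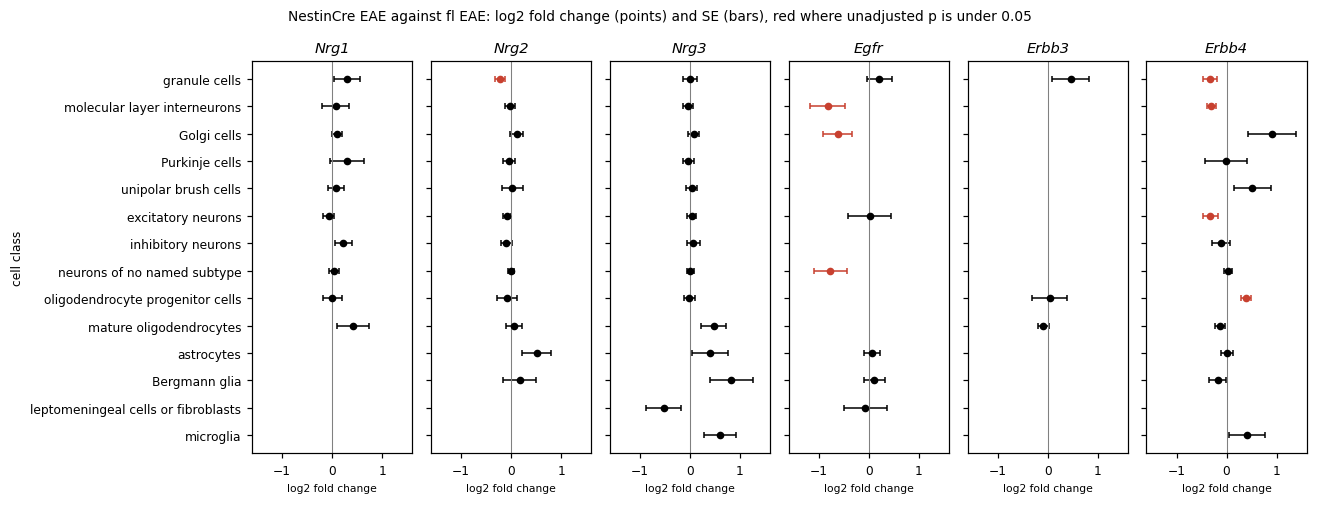
Log2 fold change of NestinCre against fl mice in EAE (x axis, points, bars are the standard error) for 6 genes (panels) in up to 14 classes (y axis). Red marks the 8 pairs with an unadjusted p under 0.05, and Erbb4 is red in 4 classes, higher in oligodendrocyte progenitor cells (0.38) and lower in granule cells (-0.33), molecular layer interneurons (-0.30) and excitatory neurons (-0.32).

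In oligodendrocyte progenitor cells, Erbb4 was at 3127, 3735, 3537 and 3580 CPM in fl EAE 1 to 4 and at 5201, 4338, 4365 and 3984 CPM in NestinCre EAE 1 to 4. The 2 groups did not overlap, and this was the case in 1 of the 60 pairs, against 4.38% of all gene and class pairs and 3.98% of the genes tested in this class. By edgeR the difference was 0.38 on the log2 scale with an SE of 0.10 and an adjusted p of 0.0556. In this class 0.676% of 4143 genes were called, and 4.2% were higher in NestinCre mice at an unadjusted p under 0.05. Naive mice were lower or overlapping, with 2637 and 3640 CPM in fl and 2960 in NestinCre mice. The adjusted p depended on the setting. With all 8 libraries it was 0.0210 with library size alone, 0.0436 with no run term and 0.137 with the replicate number as a block. Within run 1 alone, 3 against 3, the log2 fold change was 0.48 with an adjusted p of 0.00452. Without fl EAE 4 it was 0.47 (adjusted p = 0.00347) and without NestinCre EAE 4 it was 0.47 (adjusted p = 0.00397). In these 2 fits the library 4 that stayed was alone in run 2, so the run term took it up. They are in effect the run 1 comparison again and not separate results. Over the other leave-one-out fits the adjusted p lay between 0.0694 and 0.437. These values rest on 38 to 91 nuclei and 593 to 1398 UMIs per library. The summed markers of mature oligodendrocytes in this class (10 genes, none at 0) overlapped, at 295 to 955 CPM in fl and 439 to 872 in NestinCre EAE libraries, as did those of infiltrating phagocytes (9 genes, 1 at 0), at 10.5 to 14.6 and 5.70 to 76.2 CPM. For the other members tested in progenitor cells, the log2 fold changes of Nrg1, Nrg2, Nrg3 and Erbb3 lay between -0.08 and 0.04 there, and none was called.

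**Figure D4:**
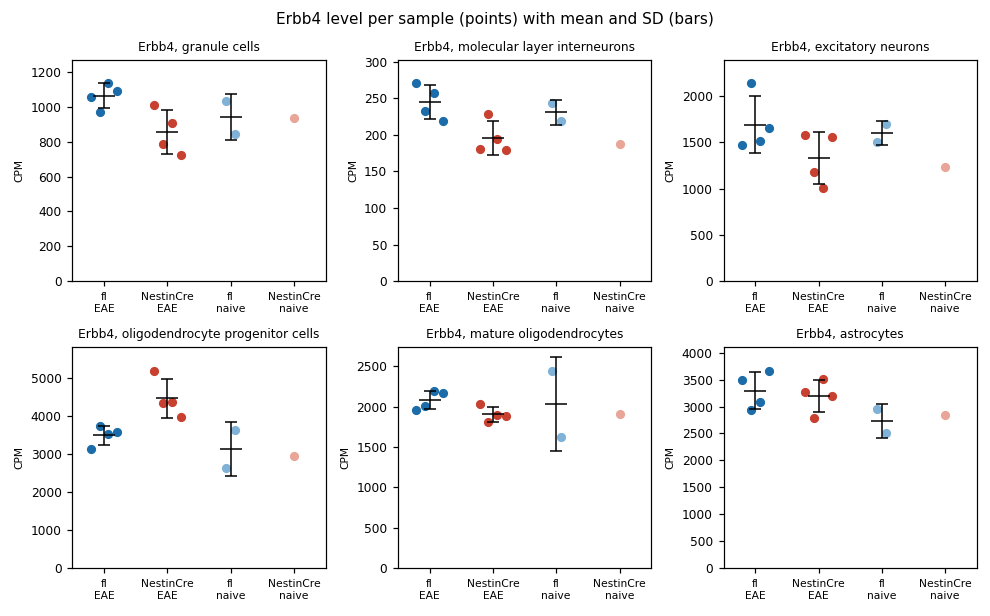
Erbb4 level (CPM, y axis from 0) in each library (points) of the 4 groups for 6 classes, with the mean (long bar) and SD (short bars) of groups with at least 2 libraries. In oligodendrocyte progenitor cells all 4 NestinCre EAE points (3984 to 5201) lie above all 4 fl EAE points (3127 to 3735), and in the other 5 classes the EAE groups overlap.

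In granule cells, the excitatory neurons that receive mossy fibres, Erbb4 was at 1057, 967, 1133 and 1093 CPM in fl EAE 1 to 4 and at 1008, 788, 908 and 721 CPM in NestinCre EAE 1 to 4. NestinCre EAE 1 lay within the fl range and the other 3 below it. The means were 1063 ± 70.7 and 856 ± 127 CPM (SD, n = 4 each), the difference on the log2 scale was -0.33 (SE 0.13, edgeR adjusted p = 0.442), and the difference was not called. By unadjusted p, 3.4% of all genes tested in granule cells were lower in NestinCre mice. The difference was smaller within run 1 (-0.19, adjusted p = 0.473) than in the pair of run 2, 1093 against 721 CPM. Naive libraries were between 846 and 1035 CPM and did not separate by genotype. The clusters of the class gave log2 fold changes of -0.32 (led by Il16), -0.33 (led by Svep1) and -0.25 (led by Nr4a3), none called. The summed markers of infiltrating phagocytes in granule cells (9 genes, none at 0 and none at 20 CPM) were 5.57 to 17.9 CPM in fl and 19.6 to 157 CPM in NestinCre EAE libraries. Those of neutrophils (7 genes, 5.26 to 6.91 and 12.6 to 76.7 CPM) and of leptomeningeal cells or fibroblasts (8 genes, 5.81 to 8.81 and 9.68 to 12.9 CPM) were apart in the same direction, and the part of these lists in the difference was not tested.

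In molecular layer interneurons Erbb4 was at 270, 232, 257 and 219 CPM in fl EAE 1 to 4 and at 180, 228, 194 and 179 CPM in NestinCre EAE 1 to 4. The ranges overlapped through NestinCre EAE 2 and fl EAE 4. The difference on the log2 scale was -0.30 (SE 0.086, edgeR adjusted p = 0.290) and was -0.29 within run 1, and in each of the 4 clusters it lay between -0.42 and -0.28 with none called. Of all genes tested in this class, 3.25% were lower by unadjusted p. The cluster with most Erbb4, led by Cdh1, was at 691 ± 108 CPM in fl and 569 ± 33.8 CPM in NestinCre mice. Phagocyte markers were at 3.90 to 12.4 CPM here in fl and at 14.4 to 94.5 CPM in NestinCre EAE libraries, neutrophil markers were at 5.08 to 7.57 and 9.17 to 35.3 CPM, and the part of both was not tested.

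In excitatory neurons Erbb4 was at 1469, 2136, 1513 and 1653 CPM in fl EAE 1 to 4 and at 1575, 1175, 1009 and 1558 CPM in NestinCre EAE 1 to 4, with overlapping groups. The difference on the log2 scale was -0.32 (SE 0.14, edgeR adjusted p = 0.986). In this class 2.16% of genes were lower by unadjusted p. Erbb4 ranged from 104 to 4668 CPM between its larger clusters, which were not fitted separately, and the part of their mix was not tested. Markers of infiltrating phagocytes (9 genes, none at 0) summed to 0.833 to 4.71 CPM in fl and 5.82 to 40.2 CPM in NestinCre EAE libraries, and their part was not tested. Among nuclei with at most 6000 UMIs the Erbb4 difference was 0.07, so the direction was not kept. In the remaining classes the sign of the Erbb4 difference varied, and over the 13 classes that passed the filter it was above 0 in 6 and below 0 in 7. Mature oligodendrocytes were at 2082 CPM in fl and 1903 in NestinCre EAE mice on average (log2 fold change -0.13, SE 0.10) and astrocytes at 3297 and 3188. In astrocytes the fitted log2 fold change (0.0071, SE 0.13) was opposite in sign to the ratio of these means and smaller than its SE, so no direction is read from it. In mature oligodendrocytes the markers of infiltrating phagocytes (7.63 to 17.6 CPM in fl and 20.9 to 166 in NestinCre EAE libraries), neutrophils (4.82 to 9.29 and 11.0 to 83.8 CPM) and B cells (3.40 to 9.40 and 11.7 to 27.4 CPM) were apart, and their part was not tested.

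None of the ligands was called between the genotypes in EAE. Nrg2 in granule cells was at 548, 576, 596 and 656 CPM in fl EAE 1 to 4 and at 513, 483, 562 and 496 CPM in NestinCre EAE 1 to 4. Of the NestinCre values, 562 lay within the fl range and 3 below it. The difference on the log2 scale was -0.22 (SE 0.097, edgeR adjusted p = 0.504), and it was -0.11 within run 1. In molecular layer interneurons Nrg2 was at 465, 553, 487 and 498 CPM in fl and at 483, 404, 565 and 497 CPM in NestinCre EAE libraries, with full overlap and a log2 fold change of -0.02 (SE 0.10).

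Nrg1 in granule cells was at 28.7, 23.5, 43.0 and 18.5 CPM in fl EAE 1 to 4 and at 32.5, 33.6, 23.7 and 51.7 CPM in NestinCre EAE 1 to 4, a log2 fold change of 0.29 (SE 0.27, adjusted p = 0.830, edgeR) with overlapping groups. The direction came from the 2 libraries of run 2, at 18.5 and 51.7 CPM, and within run 1 it was -0.05. In molecular layer interneurons Nrg1 was at 37.5, 37.1, 61.8 and 23.4 CPM in fl and at 35.3, 35.5, 23.5 and 62.4 CPM in NestinCre EAE libraries (log2 fold change 0.07, SE 0.27), and within run 1 it was -0.47. The fitted value was smaller than its SE and opposite in sign to the ratio of the group means, so no direction is read from it. Where Nrg1 was high, its values were close: Golgi cells held 6647 CPM in fl and 6946 in NestinCre EAE mice (log2 fold change 0.10, SE 0.10), and neurons of no named subtype 2606 and 2673 (0.04, SE 0.096). Nrg3 passed the filter in all 14 classes with 9 log2 fold changes above 0 and 5 below, from -0.53 in leptomeningeal cells or fibroblasts to 0.83 in Bergmann glia, and its smallest adjusted p was 0.323. In neurons, where it was most abundant, it lay between -0.04 and 0.07.

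**Figure D5:**
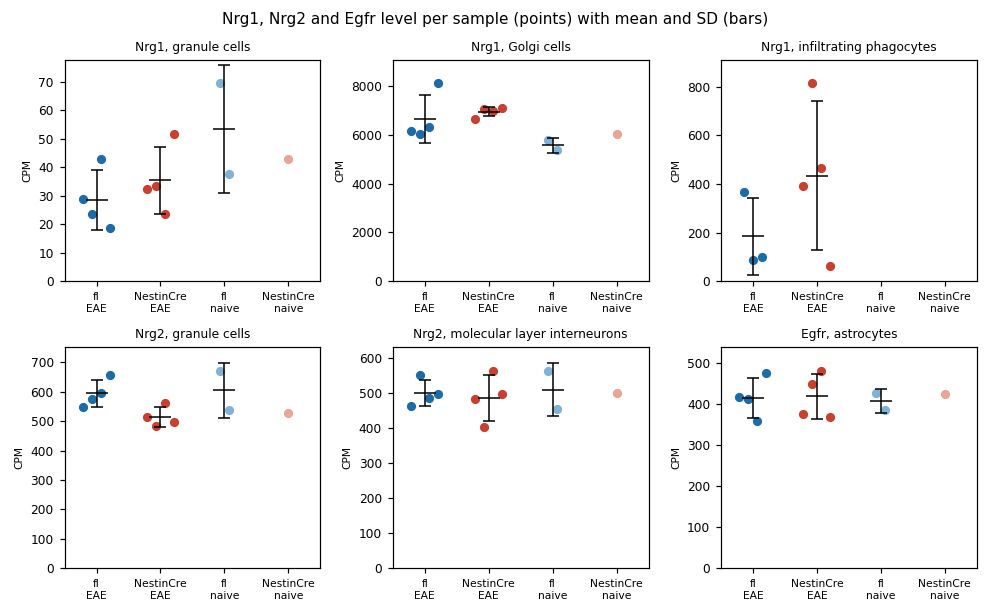
Level (CPM, y axis from 0) in each library (points) of the 4 groups for Nrg1 in granule cells, Golgi cells and infiltrating phagocytes, Nrg2 in granule cells and molecular layer interneurons, and Egfr in astrocytes, with mean and SD of groups with at least 2 libraries. The EAE groups overlap in all 6 panels, and infiltrating phagocytes are shown for libraries with at least 10 nuclei, which no naive library had.

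Of the other receptors, Erbb3 in mature oligodendrocytes was at 108, 124, 106 and 135 CPM in fl EAE 1 to 4 and at 93.0, 111, 122 and 118 CPM in NestinCre EAE 1 to 4. The ranges overlapped, and the difference on the log2 scale was -0.09 (SE 0.11, edgeR adjusted p = 0.863). In progenitor cells Erbb3 was at 26.4, 67.9, 41.9 and 52.5 CPM in fl and at 40.3, 56.3, 43.3 and 51.3 CPM in NestinCre EAE libraries (log2 fold change 0.04, SE 0.34), on 46 and 44 UMIs per group. Newly formed oligodendrocytes were too few to test, with 48 nuclei in 4 fl and 3 nuclei in 4 NestinCre EAE libraries.

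Egfr had an unadjusted p under 0.05 in 3 neuronal classes, lower in NestinCre mice in each, where 2.5% of genes were lower by unadjusted p in Golgi cells, 3.25% in molecular layer interneurons and 2.36% in neurons of no named subtype. In Golgi cells it was at 78.0, 52.0, 57.0 and 118 CPM in fl EAE 1 to 4 and at 38.1, 63.9, 70.1 and 42.0 CPM in NestinCre EAE 1 to 4 (log2 fold change -0.62, SE 0.28, adjusted p = 0.792, edgeR). Within run 1 it was -0.10. Markers of infiltrating phagocytes (9 genes, 2 at 0) summed to 0 to 3.12 CPM in fl and 8.75 to 38.1 CPM in NestinCre EAE Golgi cells, those of neutrophils (7 genes, 1 at 0) to 1.94 to 6.24 and 7.0 to 14.2 CPM, and the part of both was not tested. In molecular layer interneurons it was at 16.4, 7.42, 10.6 and 6.84 CPM in fl and at 6.78, 3.84, 2.54 and 7.34 CPM in NestinCre EAE libraries, on 114 and 55 UMIs, with a log2 fold change of -0.82 (SE 0.35, adjusted p = 0.602), and within run 1 it was -1.25. In neurons of no named subtype it was at 1.98, 4.36, 2.92 and 4.55 CPM in fl and at 2.90, 1.63, 2.23 and 1.54 CPM in NestinCre EAE libraries, on 84 and 49 UMIs (log2 fold change -0.77, SE 0.33, adjusted p = 0.861). The ranges overlapped in all 3 classes. In astrocytes, which held most Egfr, the values were 415, 410, 357 and 474 CPM in fl and 375, 448, 480 and 367 CPM in NestinCre EAE libraries (log2 fold change 0.07, SE 0.16).

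EAE was compared with the naive state in a model of all 11 libraries with run as a term. Run 2 is the only run with both states, so the comparison in fl mice rests mainly on fl EAE 4 against fl naive 2. NestinCre EAE 4 also enters it, because the run term was fitted over both EAE groups. In NestinCre mice the comparison is carried over from run 3 by 1 naive library per genotype. Both fl naive libraries enter it as well, through the run term. The 2 comparisons therefore share libraries. None of the 67 pairs that passed the filter was called in fl mice, by edgeR or by DESeq2, where 0.111% of all pairs were called by edgeR, and none in NestinCre mice, where 0.0604% were. Unadjusted p was under 0.05 for 12 pairs in fl mice (1 higher, 11 lower in EAE, background 8.07%) and for 11 pairs in NestinCre mice (3 higher, 8 lower, background 6.77%). The median log2 fold change was -0.13 and -0.17, beside 0.0075 and 0.015 over all genes.

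The log2 fold change was below 0 in 42 of 67 pairs in fl mice and in 43 of 67 in NestinCre mice. That of Nrg1 was below 0 in 11 of 13 classes in fl mice (median -0.72) and in 11 of 13 in NestinCre mice (median -0.97). The library fl naive 2 enters both comparisons, so these counts are not separate results. In NestinCre mice, the granule cell cluster led by Il16 held Nrg1 at 25.2 to 52.2 CPM in EAE and at 44.5 in the naive library. The one led by Svep1 was at 23.8 to 48.5 and 41.8 CPM, so both naive values lay within the EAE range. In granule cells of fl mice Nrg1 was at 18.5 to 43.0 CPM in EAE and at 69.4 and 37.6 CPM in the naive libraries, which overlap. In mature oligodendrocytes, Nrg2 was at 20.2, 15.6, 20.1 and 10.8 CPM in fl EAE libraries and at 25.1 and 25.9 in fl naive libraries (log2 fold change -0.95, SE 0.26, adjusted p = 0.113, edgeR), and at 18.9, 18.5, 15.9 and 15.4 CPM in NestinCre EAE libraries and 30.2 in the naive library (-1.21, SE 0.37, adjusted p = 0.282). The run 2 libraries fl EAE 4 and fl naive 2 held 38 and 183 of these UMIs. Several marker lists were apart in this class in fl mice. Those of infiltrating phagocytes (7.63 to 17.6 against 5.75 to 5.91 CPM) and molecular layer interneurons (1793 to 2132 against 1465 to 1787) were among those higher in EAE. Those of newly formed oligodendrocytes (1216 to 1332 against 1361 to 1658 CPM) were among those lower. Their part was not tested. In microglia, Nrg3 was at 81.1, 84.7, 128 and 25.4 CPM in fl EAE libraries and at 218 and 106 in fl naive libraries (log2 fold change -1.77, SE 0.46, adjusted p = 0.170), with overlapping ranges. Here fl EAE 4 (25.4 CPM) held 7 UMIs and fl naive 2 (218 CPM) held 99. The summed markers of granule cells in fl microglia were 1056 to 1347 CPM in EAE and 1432 to 1543 in naive libraries. Those of excitatory neurons (69.1 to 248 and 256 to 275 CPM) and microglia (5364 to 6524 and 6631 to 7103 CPM) were also lower in EAE. So were those of oligodendrocyte progenitor cells (31.2 to 77.7 and 83.0 to 101 CPM), B cells (76.3 to 120 and 124 to 163 CPM) and endothelial cells (28.2 to 37.4 and 37.7 to 61.7 CPM). Those of neuroblasts or cycling cells were higher (12.5 to 84.7 and 0 to 11.0 CPM). The part of these lists was not tested.

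The fl libraries of run 2 lay at opposite ends for Nrg1 in several classes of low level. The library fl EAE 4 had the lowest Nrg1 level of the 11 libraries in granule cells (18.5 CPM), mature oligodendrocytes (13.6), microglia (10.9) and Bergmann glia (9.01), and fl naive 2 had the highest in each, at 69.4, 53.7, 70.5 and 81.5 CPM. The same libraries held 141 and 354 excitatory neurons and 318 and 709 neurons of no named subtype, the classes with high Nrg1. The part of this in the EAE values was not tested.

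Erbb4 in progenitor cells of NestinCre mice was at 3984 to 5201 CPM in EAE and at 2960 CPM in the naive library, a difference that was not called (log2 fold change 1.02, SE 0.31, adjusted p = 0.379, edgeR), and in fl mice the naive values of 2637 and 3640 CPM overlapped those in EAE. The difference between the genotypes was itself compared between EAE and naive mice. None of 67 pairs was called by edgeR or DESeq2, with 5 under an unadjusted p of 0.05, where 0.00373% and 5.11% of all pairs were, and the smallest adjusted p was 0.680. For Erbb4 in progenitor cells this interaction was 0.63 (SE 0.25, adjusted p = 0.828, edgeR). Between the genotypes in naive mice, a comparison of 1 library with 1 within run 3, none of 67 pairs was called by edgeR and 5 had an unadjusted p under 0.05, where 0.00894% and 4.41% of all pairs did. With 1 library on each side, the spread came from the other groups and the lone libraries were assumed to vary like them, so these counts tell little about genotype in naive mice. The smallest adjusted p there was 0.181, for Erbb4 in Golgi cells, the pair in which 1 nucleus gave 75 of 96 UMIs.

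A list of 64 other genes of the pathway was examined in the same fits. In EAE, 604 of its gene and class pairs were tested between the genotypes, of which 2 were called higher and none lower in NestinCre mice, beside the 0.955% of all pairs that were called. One of them was Rhbdf2 in microglia, where 6.84% of 6491 genes were called. Rhbdf2, which encodes an inactive rhomboid that controls the sheddase ADAM17, was at 19.4 ± 5.87 CPM in fl and 57.0 ± 10.5 CPM in NestinCre mice (SD over 4 libraries, difference of 1.53 on the log2 scale, SE 0.34, edgeR adjusted p = 0.00633). Markers of infiltrating phagocytes summed to 7.06 to 34.7 CPM in fl and to 87.7 to 265 CPM in NestinCre EAE microglia. Markers of neuroblasts or cycling cells (12.5 to 84.7 and 148 to 219 CPM) were apart in the same direction. Microglia's own markers (5364 to 6524 and 3935 to 5037 CPM), those of granule cells (1056 to 1347 and 897 to 1027 CPM) and those of leptomeningeal cells or fibroblasts (48.0 to 56.1 and 20.8 to 43.9 CPM) were apart in the other direction. The part of these lists was not tested. None of the 21 pairs of other EGF family ligands or the 143 of negative regulators was called by edgeR. Between EAE and naive mice, 685 pairs of the list were tested in each genotype and none was called by edgeR.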

How the data were processed

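Nuclei had been sorted by Hoechst signal with no gate against doublets and sequenced by 10x Genomics 3′ chemistry. The deposited matrices hold raw UMI counts per gene and barcode, made by the authors with Cell Ranger (6.0.2 per the labels, 7.0.0 in the matrix headers of run 1) on GRCm39, with intronic reads. Barcodes with at least 200 genes (run 1) or 500 genes (runs 2 and 3) and at most 5% mitochondrial UMIs were kept, 188089 of 189709. The 26602 barcodes (14.1%) with the highest simulated-doublet scores, at 0.8% per 1000 barcodes, were left out. So were 27 clusters with over 50% of nuclei flagged in this way (10603 nuclei, many of them already among the flagged barcodes). Nuclei were clustered by the Leiden method (leidenalg 0.10.2, 3000 variable genes without the members, 40 components integrated over libraries by a Harmony-type correction, resolution 0.5). Nuclei outside the clear granule cell and mature oligodendrocyte clusters were then clustered together again at resolution 3, and 6877 nuclei (4.32%) stayed unnamed. Clustering and naming settings were chosen after looking at cluster tables. The members and lists were chosen with earlier results of these data known.

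UMIs were summed per library and class and tested with edgeR 4.0.16 (TMM factors, filterByExpr, run as covariate, two-sided, threshold 0.05), with DESeq2 1.42.0 as an alternative, in R 4.3.3. Classes needed at least 10 nuclei per library. The edgeR comparison of genotypes in EAE was tried on simulated counts of granule cells, mature oligodendrocytes and oligodendrocyte progenitor cells. The other steps and comparisons were not tried in this way. Values per library were to be printed for pairs called or with an unadjusted p under 0.05 between genotypes in EAE, and for Erbb4, Nrg1 and Nrg2 in granule cells and molecular layer interneurons and Erbb3 in oligodendrocyte classes. Pathway genes were named where called, and 3 genes most like each member by correlation over classes. Some genes that this rule names are not reported here. Other pairs given with values were chosen after their values were seen. P-values measure the spread between libraries, since the labels do not state that each is a separate mouse. Intervals and limits cover counting error only. No sequence is shown, since protein sequences were not used here.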

Additional observations from a re-analysis of the deposited data

Results flagged for a closer look

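In groups of 4 libraries, the highest or lowest library was set apart from the other 3 when its gap to the nearest, as a share of the group's range, exceeded Dixon's critical value at the 95% level. Of 122 groups of gene, class and EAE genotype examined, 9 had such a library, and chance alone gives about 1 in 20.

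Of the ligands, Nrg1 was at 8098 CPM in Golgi cells of fl EAE 4, with the other 3 libraries at 6022 to 6299, and at 3148 CPM in excitatory neurons of NestinCre EAE 4, with the others at 2524 to 2629. At low levels, Nrg1 was at 71.8 CPM in Purkinje cells of fl EAE 2 against 27.6 to 29.0, at 89.6 CPM in astrocytes of fl EAE 3 against 14.9 to 15.5, and at 43.0 CPM in leptomeningeal cells or fibroblasts of fl EAE 3 with 0 in the other 3. These 3 values rest on few molecules: 1 nucleus gave 14 of the 32 UMIs in the Purkinje cells and another 32 of the 50 UMIs in the astrocytes, and the fibroblast value is 2 UMIs in 23 nuclei. NestinCre EAE 1 was high for Nrg2 in oligodendrocyte progenitor cells (224 CPM against 155 to 162), for Nrg3 in Golgi cells (2899 CPM against 2304 to 2403) and for Nrg3 in granule cells (1977 CPM against 1482 to 1541). Of the receptors, Erbb4 was low in inhibitory neurons of fl EAE 3, at 246 CPM against 396 to 421.

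Infiltrating phagocytes, a class too small in fl mice for the tests, gave a Nrg1 signal of 431 CPM over the EAE libraries with at least 10 such nuclei. The naive libraries had 0 UMIs in 12 nuclei, where a limit of 3 counts is 110 CPM. This limit is lower than the upper end of an exact Poisson interval would be. Of these 7 EAE libraries, fl EAE 3 (86.9 CPM), fl EAE 4 (102) and NestinCre EAE 4 (64.7) lay below that limit, and the fl EAE libraries together were at 158 CPM and the NestinCre EAE libraries at 477. Nrg2 and Nrg3 differed between these groups in the same direction, with values given below.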

How the results depend on the processing

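Between genotypes in EAE the count of called members was 0 as reported and 1 with library size alone, 1 with no run term and 1 in run 1 alone, each time Erbb4 in oligodendrocyte progenitor cells (0.35, 0.39 and 0.48 on the log2 scale, adjusted p 0.0210, 0.0436 and 0.00452). Leaving out one library gave 0 to 1 calls. The call was 1 without either library 4 (the same gene and class, 0.47 each, adjusted p 0.00347 and 0.00397), fits that in effect repeat run 1 alone. It was also 1 without fl EAE 1 (Erbb4 in Golgi cells, 2.23). For EAE against naive, fl mice gave 1 call with no filter (Nrg3 in microglia, -1.74) and 0 to 2 over the libraries left out: Nrg3 in microglia without NestinCre EAE 3 or 4 (-1.98 and -3.08) and Nrg1 in inhibitory neurons without NestinCre EAE 4 (-1.18). NestinCre mice gave 1 call with no run term and 0 to 1 over the libraries left out, Erbb4 in Golgi cells each time (-2.34, and -6.48 without NestinCre EAE 4). The interaction gave 1 call with no filter (Erbb4 in Golgi cells, -2.18) and 0 to 0 with libraries left out. In naive mice Erbb4 in Golgi cells was called with no filter (3.06) and no run term (3.26), and without fl EAE 1 (3.07), fl EAE 4 (3.07) or NestinCre EAE 4 (3.08), a value that rests mainly on 1 nucleus. These contrasts could not be fitted without some naive libraries. Directions turned for Erbb3 in mature oligodendrocytes with all barcodes summed (0.14), Erbb3 in progenitor cells without fl EAE 1 (-0.10), fl EAE 3 (-0.013) or NestinCre EAE 2 (-0.056), with 0.24 the highest over the libraries left out, Erbb4 in excitatory neurons at up to 6000 UMIs (0.068), Erbb4 in progenitor cells with all barcodes summed (-0.19, a sum over all classes), Nrg1 in granule cells in run 1 or without either library 4 (-0.047, up to 0.56 without fl EAE 3), Nrg1 in molecular layer interneurons with DESeq2 (-0.034), in run 1 or without either library 4 (-0.47, up to 0.36 without fl EAE 3) and in cluster 12 (-0.094), and Nrg2 there without fl EAE 2 (0.03), without NestinCre EAE 2 (0.072) and in clusters 10 (0.021) and 13 (0.049). The fits per cluster were chosen after seeing the data. Of 237 alternative values of 13 pairs, 214 kept direction and side of the threshold. The cause of the changes was not tested. With the replicate number as a block the count was 0 and Erbb4 in progenitor cells 0.38 (adjusted p 0.137). Same-numbered libraries had correlations of -0.14 to 0.22. For number 2 the same number was the best match in granule cells (0.21) and mature oligodendrocytes (0.22), among other classes. Numbers 1, 3 and 4 were below 0 in both classes (-0.14 to -0.04), so the numbers did not pair all libraries. Pathway calls were 2 with the block and 3 in run 1. Erbb2 was close to the limit of detection.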

Other observations

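Some classes were too small for the tests. In infiltrating phagocytes, NestinCre EAE libraries gave 309 Nrg1 UMIs in 324 nuclei, or 477 CPM (exact Poisson interval 426 to 534), and fl EAE libraries 18 UMIs in 51 nuclei, or 158 CPM (93.4 to 249). By library, those with at least 10 nuclei were at 368, 86.9 and 102 CPM in fl EAE 1, 3 and 4 and at 394, 813, 467 and 64.7 CPM in NestinCre EAE 1 to 4, and no test was made. The fl values rest on few nuclei: in fl EAE 1, 1 of 16 nuclei gave 9 of the 10 UMIs, and fl EAE 3 and 4 held 3 and 5 UMIs. On the NestinCre side, 1 nucleus gave 31 of 98 UMIs in NestinCre EAE 2 and another gave 19 of 88 in NestinCre EAE 3. NestinCre EAE 1 held 121 UMIs, at most 11 of them in 1 nucleus, and NestinCre EAE 4 held 2 UMIs. The higher value was not particular to Nrg1. In the same nuclei Nrg2 was at 218 CPM (183 to 257) in NestinCre EAE and 78.8 (36.0 to 150) in fl EAE libraries. Nrg3 was at 238 (202 to 279) and 105 (54.3 to 184) CPM, and Erbb4 at 156 (127 to 190) and 184 (114 to 281) CPM. These differences were not tested. Intervals are at the 95% level and cover counting error only.

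Newly formed oligodendrocytes held Nrg1 at 2149 CPM in fl EAE mice (566 UMIs in 48 nuclei, 1976 to 2334), at 2858 CPM in fl naive mice (427 UMIs in 36 nuclei, 2593 to 3142) and at 1763 CPM in the NestinCre naive library (147 UMIs in 14 nuclei, 1490 to 2073), where 1 nucleus gave 62 of the UMIs. Single nuclei also gave 93 of the 278 UMIs in fl EAE 3 and 37 of the 121 in fl naive 3. The intervals leave out the spread between nuclei and libraries, so they do not set the groups apart. Erbb4 in newly formed oligodendrocytes was at 3349, 2663 and 2795 CPM in the same order of groups. The 3 nuclei of NestinCre EAE libraries held 10 UMIs of Nrg1 and 38 of Erbb4. Among clusters of granule cells, the one led by the interferon-induced genes Gbp6 and Ifi203 held 722 nuclei, 502 of them in NestinCre EAE 1, 118 in NestinCre EAE 3, 77 in NestinCre EAE 4 and 15 in fl EAE 2, with Erbb4 at 980, 855, 562 and 1371 CPM in these libraries. A cluster of 64 nuclei led by Prdm6 held 54 nuclei of fl EAE 4, with Nrg1 at 1767 CPM and Nrg2 at 229 CPM in them. It was named granule cells, although the larger granule cell clusters of this library held Nrg1 at 15.5 to 15.9 CPM and Nrg2 at 573 to 702. Its nuclei are part of the granule cell values of fl EAE 4.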
